A study of Mus musculus with 24 samples.

Results

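Ribosomal protein genes were followed across 24 microarrays of T6E cells. Of 19938 genes measured by a probe set with a single gene symbol, 136 were taken as members by their symbols: 59 cytosolic ribosomal protein genes, with symbols starting Rpl, Rps or Rplp, and 77 mitochondrial ones, with symbols starting Mrpl or Mrps. By symbol, the cytosolic class held 35 genes of the large 60S subunit, 3 genes of its P-stalk and 21 genes of the small 40S subunit, and the mitochondrial class held 48 genes of the large 39S subunit and 29 of the small 28S subunit. A further 19 member symbols, Mrpl53 and 18 cytosolic ones such as Rpl11, Rps16 and Rps27, stood only on probe sets shared by several symbols and were not analysed.

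T6E is a mouse T-cell leukaemia line that depends on Notch1 signalling. Cells carried 1 of 4 constructs: DNMAML, a dominant negative form of the Notch coactivator Mastermind-like; ICN1, intracellular Notch1, which acts without gamma-secretase; R1984A, an intracellular Notch1 that the labels call dimerization defective; or MigR1, the empty vector. For 6 hours they received compound E at 1 uM, which inhibits gamma-secretase (GSI), or DMSO. The 8 groups of 3 arrays are named by construct and treatment, such as DNMAML-GSI, and every group shares the T6E background and total RNA from whole cultures. Whether the 3 samples of each group were grown separately is not stated in the labels, so the p-values reflect the spread of these samples alone, and that spread may be technical. In such bulk RNA, fewer cells of a type and less RNA per cell cannot be told apart.

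Ribosomes of the cytosol translate nuclear transcripts, while the separate mitochondrial ribosome translates the few proteins encoded in mitochondrial DNA, all of them parts of the respiratory chain or of ATP synthase. Both sets of proteins are encoded in the nucleus. Cytosolic ribosomal protein transcripts mostly begin with a run of pyrimidines that places their translation under the control of the mTOR kinase, and in T-cell leukaemia Notch1 is known to drive Myc, a transcription factor linked to ribosome production.

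The deposited values are on the log2 scale. Each difference below is a log2 difference between group means from limma, with its standard error (SE), and a gene was called when its Benjamini-Hochberg adjusted p over all 19938 genes was under 0.05. The labelled cell type was checked against its markers: of 9 T lineage markers measured, 8 had a mean above 4.18, the highest of the 24 array medians, against 0 of 5 B lineage and 0 of 6 myeloid markers, 2 of 3 erythroid markers (Epor and Alas2) and 3 of 6 stromal or epithelial ones (Col1a1, Col1a2 and Krt8). Replicate 3 had the highest array median in 8 of 8 groups, and the mitochondrial class median was lowest on replicate 3 in 7 of 8 groups, so results are also given within each replicate number. Many cytosolic genes have processed copies: 42 of 59 cytosolic and 4 of 77 mitochondrial members have a pseudogene named after them in RefSeq, and how the array's probes divide signal between such copies is not known here.

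The promoters of 6 called members are shown because these genes carry the differences described below. They run from 230 bases before the annotated start to the 30th base from it, on the strand of the gene, from RefSeq on GRCm38.p6. Capitals mark matches to the motifs searched and, near the start, a C with the pyrimidines that follow it.
Rpl12 (chr2:32961482-32961741, plus strand): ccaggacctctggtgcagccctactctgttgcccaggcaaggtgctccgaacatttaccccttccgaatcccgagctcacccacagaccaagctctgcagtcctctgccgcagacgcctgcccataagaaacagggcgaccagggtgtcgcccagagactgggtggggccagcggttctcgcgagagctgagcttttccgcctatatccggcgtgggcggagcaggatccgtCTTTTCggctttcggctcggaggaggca
Rplp2 (chr7:141447421-141447680, plus strand): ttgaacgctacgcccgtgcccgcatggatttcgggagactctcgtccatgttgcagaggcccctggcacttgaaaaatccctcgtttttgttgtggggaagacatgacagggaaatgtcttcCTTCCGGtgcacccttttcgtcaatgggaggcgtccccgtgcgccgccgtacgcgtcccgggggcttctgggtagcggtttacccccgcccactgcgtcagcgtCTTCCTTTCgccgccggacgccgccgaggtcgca
Mrpl50 (chr4:49521054-49521313, minus strand): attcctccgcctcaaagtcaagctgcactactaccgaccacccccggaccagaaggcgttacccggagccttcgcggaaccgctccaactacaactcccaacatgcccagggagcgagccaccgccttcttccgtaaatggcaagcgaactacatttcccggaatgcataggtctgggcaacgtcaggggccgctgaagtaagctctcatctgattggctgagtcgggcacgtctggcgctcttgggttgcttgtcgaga
Mrps30 (chr13:118387223-118387482, minus strand): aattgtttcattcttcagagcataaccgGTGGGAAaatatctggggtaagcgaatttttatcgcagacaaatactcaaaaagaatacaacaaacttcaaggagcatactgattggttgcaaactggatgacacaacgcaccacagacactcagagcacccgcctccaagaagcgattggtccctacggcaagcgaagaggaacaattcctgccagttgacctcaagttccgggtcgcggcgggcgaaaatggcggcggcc
Mrps18b (chr17:35916411-35916670, minus strand): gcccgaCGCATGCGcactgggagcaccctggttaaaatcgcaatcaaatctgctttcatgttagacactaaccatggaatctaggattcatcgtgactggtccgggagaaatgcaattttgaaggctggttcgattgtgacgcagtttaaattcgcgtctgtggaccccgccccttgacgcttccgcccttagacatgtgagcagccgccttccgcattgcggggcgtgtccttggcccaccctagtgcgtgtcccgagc
Mrpl36 (chr13:73330779-73331038, plus strand): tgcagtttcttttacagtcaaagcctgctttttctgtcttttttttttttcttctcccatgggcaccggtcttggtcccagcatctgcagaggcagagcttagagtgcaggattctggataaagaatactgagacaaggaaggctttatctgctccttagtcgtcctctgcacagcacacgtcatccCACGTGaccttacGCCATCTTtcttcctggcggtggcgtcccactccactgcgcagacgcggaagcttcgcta
In Rpl12 the marked run of pyrimidines starts at the third base from the annotated start, and in Rplp2 it starts 4 bases before it. Rplp2 also holds the ETS motif 108 bases before the start, Mrps30 the RBPJ motif 202 bases before it and Mrps18b the NRF1 motif 224 bases before it. Mrpl36 holds an E-box 43 bases and the YY1 motif 30 bases before the start. Mrpl50 holds none of the motifs searched.

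Across the classes, promoters from 250 bases before the start to 50 after it were searched on both strands for 5 motifs: CCGGAAG (ETS factors), AAGATGGC (YY1), CGCATGCG (NRF1), CACGTG (the E-box bound by Myc and related factors) and GTGGGAA (RBPJ, the DNA-binding partner of Notch). Promoters were found for 47 cytosolic and 68 mitochondrial members, and matches of different motifs overlapped in 0 of them. The ETS motif was present in 34% of cytosolic and 35.3% of mitochondrial promoters, against 12.5% of 15614 promoters of all genes. The YY1 motif was present in 4.26% of cytosolic and 17.6% of mitochondrial promoters, against 3.43% of all. For NRF1 these shares were 4.26%, 10.3% and 2.75%. The E-box (8.51%, 7.35% and 8.38%) and the RBPJ motif (6.38%, 8.82% and 6.13%) were about as frequent in both classes as in all promoters. A C at the annotated start followed by 4 pyrimidines was found in 10 of 47 cytosolic promoters, among them Rps6, Rps18, Rpl28 and Rplp2, in 0 of 68 mitochondrial ones and in 2.21% of all. The runs marked above were allowed to begin up to 5 bases from the start. By that wider rule the shares were 38.3% of cytosolic, 22.1% of mitochondrial and 19% of all promoters, and Rpl12 met only that rule. Of the 8 called mitochondrial members with a promoter, 2 held an E-box (Mrpl20 and Mrpl36), 1 the RBPJ motif, 1 the YY1 motif, 1 the ETS motif and 1 the NRF1 motif. These matches are descriptions of letters and not of binding.

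The main comparison asked how ribosomal protein transcripts differ between groups with Notch blocked and groups with Notch active. It set the mean of 3 groups in which Notch was blocked (DNMAML-GSI, DNMAML-DMSO and MigR1-GSI, 9 arrays) against the mean of 3 groups in which it was active (ICN1-GSI, ICN1-DMSO and MigR1-DMSO, 9 arrays). With Notch blocked, 12 of 77 mitochondrial members and 3 of 59 cytosolic members fell and 0 of either class rose, while 11.3% of all genes were called, 5.52% lower and 5.79% higher. The cytosolic share called lower, 3 of 59, is thus near the 5.52% of all genes. Of the 9921 genes with a mean above the highest array median, 1021 were called lower and 1058 higher, larger shares than among all genes. Every mitochondrial member has such a mean, the lowest being 4.48, so these brighter genes are the nearer reference for that class. The median difference was -0.14 for the mitochondrial class, -0.03 for the cytosolic class and 0.006 for all genes. Below 0 were 70 of 77 mitochondrial members and 42 of 59 cytosolic ones, against 47.8% of all genes. Added Notch1 is part of this contrast, since ICN1-GSI and ICN1-DMSO stand on the active side. The mitochondrial class median, as the deviation from each gene's own mean, averaged 0.137 and 0.138 there and 0.028 in MigR1-DMSO cells. It averaged -0.084, -0.036 and -0.066 in DNMAML-GSI, DNMAML-DMSO and MigR1-GSI cells. Both R1984A groups were left out of this contrast, and the class median averaged -0.137 in R1984A-GSI cells and 0.040 in R1984A-DMSO cells. R1984A-GSI thus lay below each blocked group. DNMAML in DMSO and GSI in MigR1 cells, each against MigR1-DMSO alone, called 0 mitochondrial members, as given below.

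Nrarp and Myc, known targets of Notch, separated these arrays. Nrarp, a feedback inhibitor of Notch, had values of 4.0, 4.10 and 4.25 (lowest, median and highest array) with Notch blocked, against 5.12, 6.32 and 6.53 with Notch active. Myc had 6.85, 7.71 and 8.18 with Notch blocked, against 9.24, 9.48 and 9.65 with Notch active, and the difference of -1.79 (SE 0.12) was called with an adjusted p of 2.5e-10. On the 6 R1984A arrays, outside this contrast, Nrarp ran from 5.98 to 6.24, above every blocked array. Myc ran from 8.14 to 8.68 there, between the blocked and active medians.

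**Figure D1:**
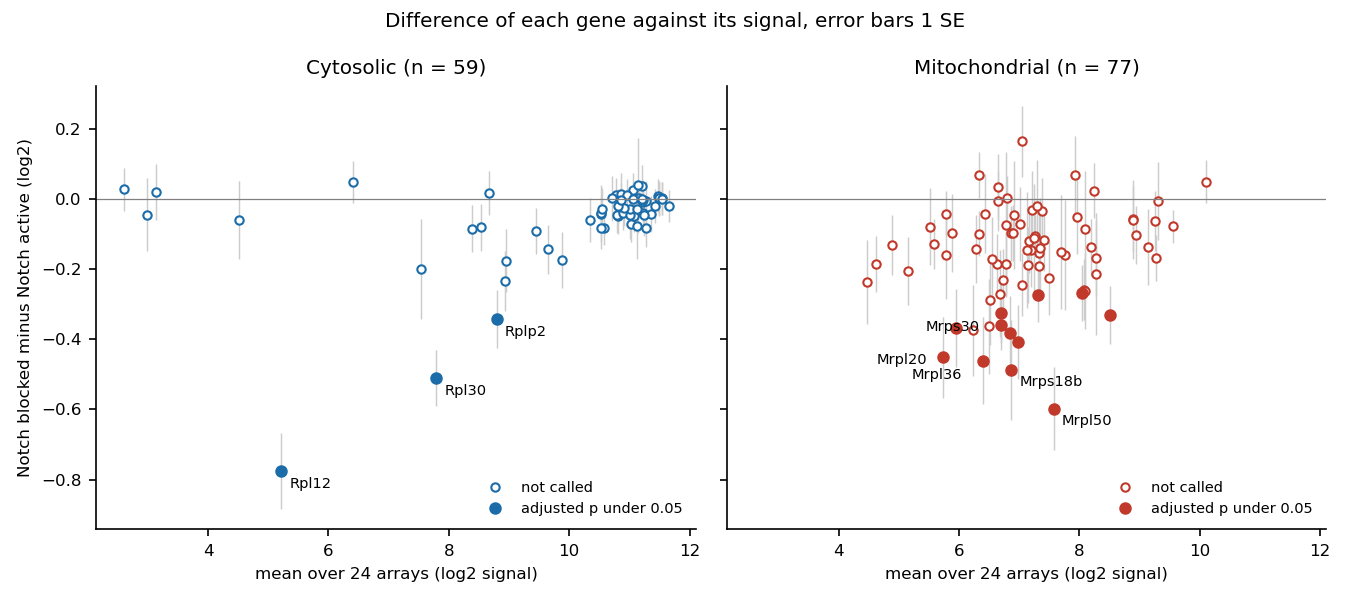
Log2 difference of Notch blocked minus Notch active (vertical axis, error bars 1 SE) against the mean log2 signal over 24 arrays (horizontal axis) for 59 cytosolic and 77 mitochondrial ribosomal protein genes. Filled points were called; most cytosolic genes sit near 0 at a signal above 10, and Rpl12 lies lowest at -0.78.

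In the cytosolic class the 3 called genes belong to the large subunit, as do most members of the class. Rpl12, which sits with Rplp0 at the base of the P-stalk, had 4.70, 4.94 and 4.07 in DNMAML-GSI cells, 5.06, 4.96 and 5.06 in DNMAML-DMSO cells and 4.79, 4.85 and 4.42 in MigR1-GSI cells. It had 5.26, 5.13 and 5.76 in ICN1-GSI cells, 5.78, 5.66 and 5.67 in ICN1-DMSO cells and 5.18, 5.75 and 5.65 in MigR1-DMSO cells. All 9 arrays with Notch blocked were thus below all 9 with Notch active, which held for 0.903% of all genes in this direction. The difference was -0.78 (SE 0.11, adjusted p 1.3e-05 by limma), or 0.584 times the active level. The 1 probe set of Rpl12 is dim for this class, with a mean of 5.21 against a class median of 10.87. Its lowest array, at 4.07, lay below 4.18, the highest array median. The 6 arrays with R1984A, 5.22 to 5.50, lay above every blocked array in Rpl12, whereas the R1984A arrays overlapped the blocked ones in Rpl30 (7.43 to 8.13), Rplp2 (8.49 to 9.22), Mrpl50 (6.86 to 7.84) and Mrps30 (6.54 to 6.76).

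Rpl30, a 60S protein whose yeast counterpart binds its own transcript, had 7.45, 7.51 and 7.22 in DNMAML-GSI cells, 7.44, 7.49 and 7.49 in DNMAML-DMSO cells and 7.58, 7.69 and 7.72 in MigR1-GSI cells. It had 7.96, 7.91 and 8.17 in ICN1-GSI cells, 7.88, 7.83 and 8.33 in ICN1-DMSO cells and 7.91, 8.02 and 8.18 in MigR1-DMSO cells. Again the blocked and active arrays did not overlap, and the difference was -0.51 (SE 0.08, adjusted p 6.4e-05). Rplp2, an acidic stalk protein that helps to recruit translation factors, ranged from 8.16 to 8.81 with a median of 8.64 with Notch blocked, against 8.74 to 9.14 with a median of 8.95 with Notch active. These ranges overlapped by a little, and the difference was -0.34 (SE 0.08, adjusted p 0.00595). The other stalk proteins gave 0.0011 (Rplp0, SE 0.064) and 0.039 (Rplp1, SE 0.14).

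Among the 21 genes of the 40S subunit 0 were called by limma, against 11.3% of all genes, and a difference between the subunits was not tested. At an unadjusted p under 0.05 there was 1 gene of this subunit, against 20.0% of all genes. That gene was Rps15a, with 8.50 to 9.06 with Notch blocked, against 8.81 to 9.22 with Notch active, and a difference of -0.23 (SE 0.09, adjusted p 0.092, or 0.04997 with each array centred on its median). Most cytosolic members had high signals, and their values hardly moved: for the 42 with a mean above 10 the median difference was -0.02, the median spread within groups (SD) was 0.06 and 0 were called. Of 267 genes of any kind with a mean above 10, 34 were called. The 14 cytosolic members between 4.18 and 10 had a median difference of -0.16, and they include the 3 called. This split was chosen after the values were seen. Its part in the result was not tested, nor was the number of probe sets: the called 3 have 1 each, while 38 of the 59 have several. The remaining 3, Rpl10l, Rpl3l and Rpl39l, had means at or below the highest array median.

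The paralogs outside the standard set gave no call in this comparison, where 11.3% of genes were called. Rpl7l1 had a difference of -0.20 (SE 0.14) and its partner Rpl7 one of 0.01 (SE 0.05). Rps27l, a p53-induced relative of Rps27, had -0.14 (SE 0.07). Rpl3l, a striated muscle form of Rpl3, had 0.02 (SE 0.08), and Rpl10l and Rpl39l, which are mainly testis forms, had -0.05 (SE 0.10) and 0.03 (SE 0.06). Rpl10 itself had 0.0015 (SE 0.047), Rpl22 0.02 (SE 0.06), Rpl26 -0.08 (SE 0.07) and Rpl36a 0.01 (SE 0.05). Rps4l, a transcribed pseudogene in RefSeq, had -0.06 (SE 0.11), and Rps4x had 0.0014 (SE 0.050).

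Small nucleolar RNA genes lie inside 18 of the 59 cytosolic members in RefSeq, and the 3 called genes are all among them: Rpl12 holds Snora65, Rpl30 holds LOC115488553 and Rplp2 holds Snora52. This was noticed after the values were seen and is a description only. The other hosts did not move alike, since Rpl4, with 5 such genes inside, had -0.02, and the median over the 18 hosts was -0.03, the same as over the 41 other members. Snora52 has a probe set of its own. It had 5.40, 5.18 and 5.22 in DNMAML-GSI cells, 5.57, 5.64 and 5.58 in DNMAML-DMSO cells and 5.75, 5.72 and 5.79 in MigR1-GSI cells. It had 6.02, 5.69 and 5.75 in ICN1-GSI cells, 5.95, 6.18 and 6.49 in ICN1-DMSO cells and 6.40, 6.50 and 6.11 in MigR1-DMSO cells. All but 2 of the active arrays thus lay above every blocked array, and the difference was -0.58 (SE 0.10, adjusted p 0.000207).

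**Figure D2:**
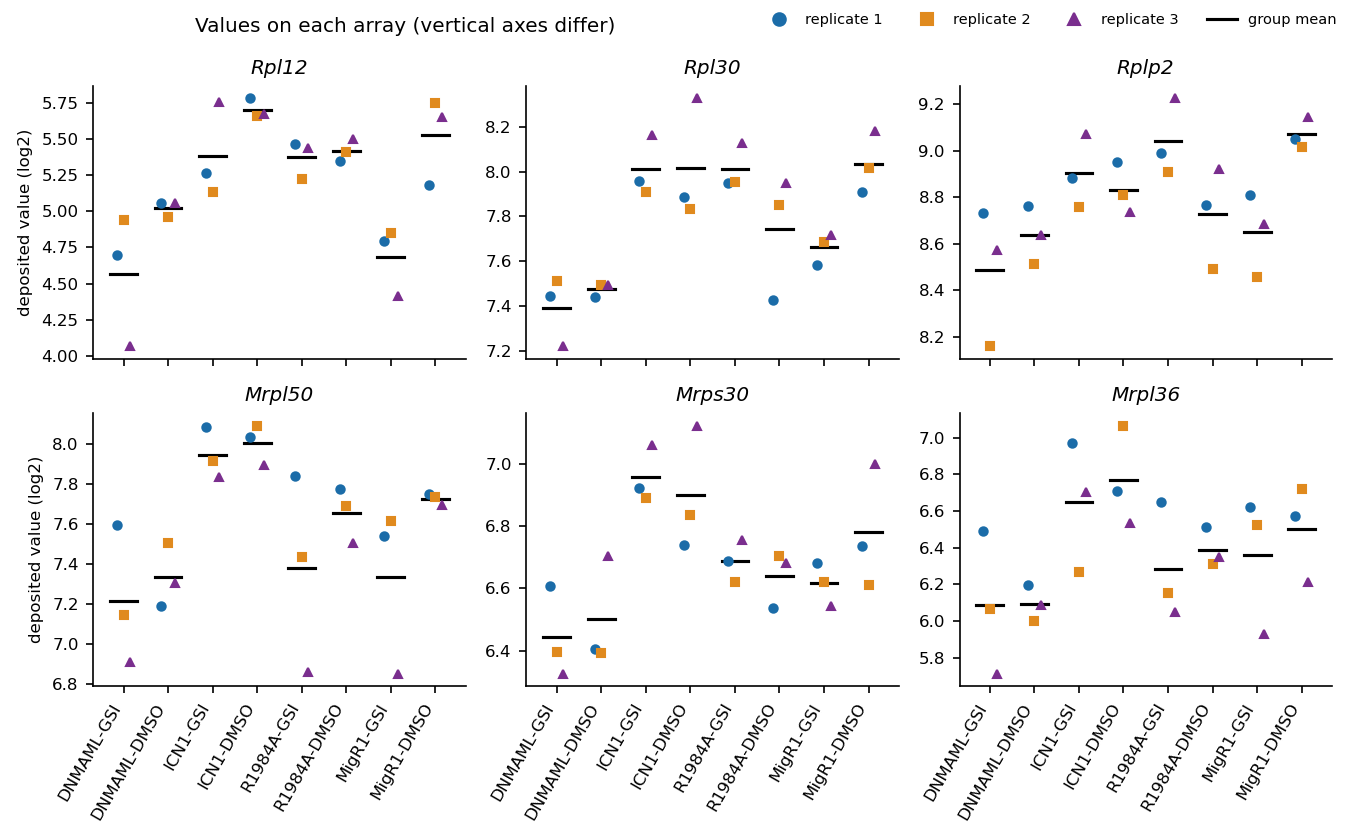
Deposited log2 values on each array for 3 cytosolic and 3 mitochondrial members called in the comparison of Notch blocked with Notch active, by group, with black lines at group means and the symbol giving the replicate number. In Rpl12, Rpl30 and Mrpl50 the 9 arrays of DNMAML-GSI, DNMAML-DMSO and MigR1-GSI lie below the 9 of ICN1-GSI, ICN1-DMSO and MigR1-DMSO.

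In the mitochondrial class, 7 of 48 members of the 39S subunit and 5 of 29 of the 28S subunit fell with Notch blocked, against 5.52% of all genes, with median differences of -0.15 and -0.14 over all members of each. Among genes with a mean above the highest array median, as every member of this class has, the share called lower was larger than that 5.52%, as given above. Mrpl50, a 39S protein, had 7.60, 7.15 and 6.91 in DNMAML-GSI cells, 7.19, 7.51 and 7.31 in DNMAML-DMSO cells and 7.54, 7.62 and 6.85 in MigR1-GSI cells. It had 8.09, 7.91 and 7.84 in ICN1-GSI cells, 8.03, 8.09 and 7.89 in ICN1-DMSO cells and 7.75, 7.73 and 7.69 in MigR1-DMSO cells. It was the 1 of 77 mitochondrial members whose blocked and active arrays did not overlap, and 0.903% of all genes were separated in this direction. Mrpl50 fell by 0.60 (SE 0.12, adjusted p 0.00094), to 0.661 times the active level.

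Mrps30, which its symbol counts with the small subunit although the mammalian protein sits in the large one, had 6.61, 6.40 and 6.33 in DNMAML-GSI cells, 6.40, 6.39 and 6.71 in DNMAML-DMSO cells and 6.68, 6.62 and 6.54 in MigR1-GSI cells. It had 6.92, 6.89 and 7.06 in ICN1-GSI cells, 6.74, 6.84 and 7.12 in ICN1-DMSO cells and 6.74, 6.61 and 7.0 in MigR1-DMSO cells. Of the active arrays, MigR1-DMSO replicate 2 alone lay within the range of the blocked arrays, and the difference was -0.36 (SE 0.07, adjusted p 0.000889). In the ICN1-GSI, ICN1-DMSO and MigR1-DMSO groups Mrps30 was highest on replicate 3, where the class median was lowest in 7 of 8 groups.

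The other 10 called mitochondrial genes had overlapping arrays and differences between -0.27 and -0.49. Mrps18b, a small-subunit protein with paralogs in the Mrps18 family, ranged from 6.19 to 7.24 with Notch blocked, against 6.80 to 7.55 with Notch active (difference -0.49, SE 0.14, adjusted p 0.0258). Mrpl36 ranged from 5.71 to 6.62 with Notch blocked, against 6.21 to 7.07 with Notch active (-0.46, SE 0.12, adjusted p 0.0143). In both genes the lower active arrays lay within the range of the blocked ones. Mrpl20 fell by 0.45 (SE 0.11) and Mrpl19 by 0.41 (SE 0.11), both homologues of bacterial large-subunit proteins. Mrpl44, which has a ribonuclease III fold, fell by 0.37 (SE 0.11). Mrpl12, the stalk protein of the mitochondrial ribosome, fell by 0.32 (SE 0.09), with 6.28 to 6.86 with Notch blocked, against 6.72 to 7.21 with Notch active. Mrpl15 fell by 0.27 (SE 0.08). In the small subunit, Mrps35 fell by 0.38 (SE 0.11), Mrps28 by 0.33 (SE 0.08) and Mrps6 by 0.27 (SE 0.08). Just inside the threshold was Mrpl44 with an adjusted p of 0.0327, and just outside it were Mrpl30 (-0.26, adjusted p 0.0557) and Mrpl47 (-0.37, adjusted p 0.0667). The highest difference of the class was 0.16 (SE 0.10) in Mrpl58, which releases stalled mitochondrial ribosomes.

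Of these 15 called members, Rpl12, Rpl30, Mrpl50 and Mrps30 stayed called when each of the 18 arrays was left out in turn, under 7 other settings and when all arrays of a replicate number were left out, which was done for 3 numbers and chosen after the data were seen. Rplp2 was lost once, without replicate number 2 (adjusted p 0.104). Of the 18 fits that left out 1 array, the call of Mrpl44 was lost in 11, that of Mrps18b in 8, that of Mrpl15 in 4 and that of Mrps6 in 2. With each array centred on its median, 2 of the 12 mitochondrial calls were made, Mrpl50 and Mrps30. Without number 2 the same 2 were called, without number 3 there were 5 and without number 1 there were 8. With replicate number as a block, 21 of 77 mitochondrial members were called. The share of all genes called under each of these other settings is not given here, so these counts cannot be set against it.

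The mitochondrial class also varied from array to array within groups. Its median, taken over the 77 genes as the deviation from each gene's own mean, was 0.11, -0.029 and -0.34 on the 3 DNMAML-GSI arrays, 0.012, 0.099 and -0.22 in DNMAML-DMSO cells and 0.12, 0.078 and -0.40 in MigR1-GSI cells. It was 0.29, -0.00039 and 0.12 in ICN1-GSI cells, 0.24, 0.17 and 0.011 in ICN1-DMSO cells and 0.18, 0.067 and -0.17 in MigR1-DMSO cells. In R1984A-GSI cells it was 0.095, -0.16 and -0.34, and in R1984A-DMSO cells 0.15, 0.095 and -0.13. The third array of each group was the lowest apart from ICN1-GSI, and the pooled SD within groups was 0.19, against 0.03 for the cytosolic class. Group means ranged from -0.14 in R1984A-GSI cells to 0.14 in both ICN1 groups (class medians averaged over 3 arrays). On 75 of 77 mitochondrial members, MigR1-GSI replicate 3 was below the gene's own mean. The same held on this array for 44 of 59 cytosolic members and for 66.1% of genes with a mean above the highest array median.

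**Figure D3:**
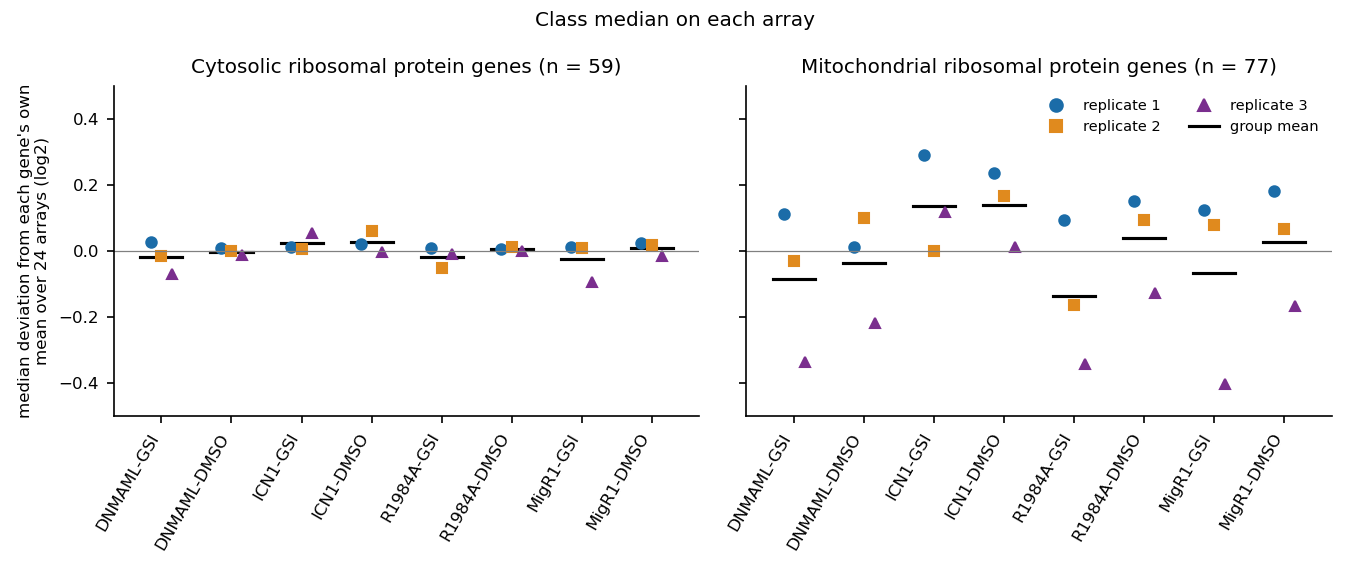
Median over the genes of each class of the deviation from the gene's own mean over 24 arrays (log2, vertical axis), 1 point per array with the replicate number as symbol and the group mean as a line. Cytosolic medians stay between -0.09 and 0.06, while mitochondrial medians run from -0.40 to 0.29 and are lowest on replicate 3 in 7 of 8 groups.

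Within each replicate number, the median difference of the mitochondrial class between Notch blocked and Notch active was -0.14 for number 1, -0.03 for number 2 and -0.30 for number 3. Of 77 members, 68, 46 and 74 were below 0 in these 3 sets of 6 arrays. The cytosolic medians were -0.0065, -0.021 and -0.064, and those of all genes -0.0005, 0.011 and 0.0045. The sign was thus the same for all 3 numbers in both classes, and in the mitochondrial class it was small for number 2. Replicate number and array median move together here, and their part in the result was not tested.

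**Figure D4:**
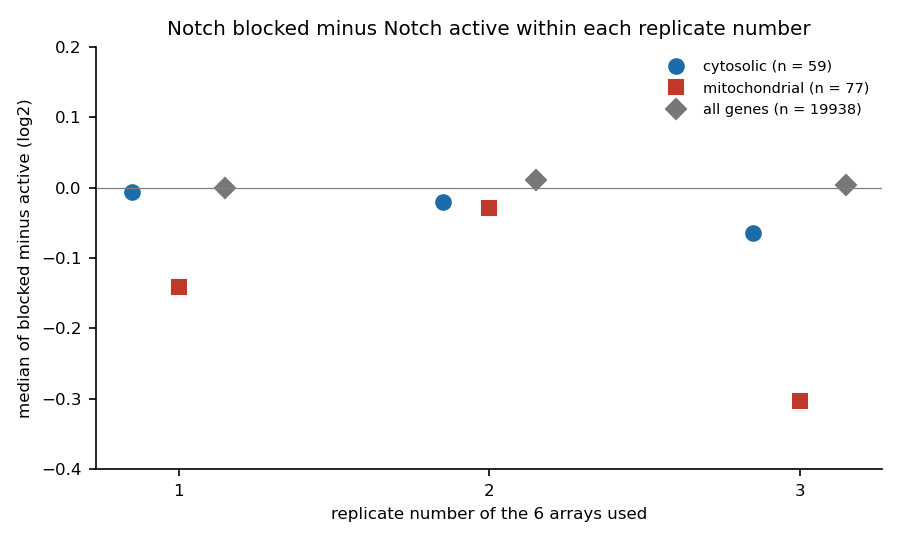
Median log2 difference of Notch blocked minus Notch active over 59 cytosolic members, 77 mitochondrial members and all 19938 genes, computed from the 6 arrays of each replicate number. The mitochondrial medians are -0.14, -0.03 and -0.30, below those of all genes in each.

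The single comparisons tested each block and each rescue on its own, with 3 arrays against 3. DNMAML in DMSO, against MigR1-DMSO, had 1 called member: Rpl30 fell by 0.56 (SE 0.14, adjusted p 0.0338), among 1.94% of all genes called and 0.833% called lower. That call was lost in 5 of the 6 fits that left out 1 array, the exception being MigR1-DMSO replicate 1, and in all 3 that left out a replicate number. With replicate number as a block, Rpl30 kept its call and Rplp2 was added (-0.43, adjusted p 0.0194). Mitochondrial members numbered 0 called and 1 at an unadjusted p under 0.05 (10.4% of all genes), and their median was -0.041, or 0.019 with arrays centred, and ran from -0.16 without MigR1-DMSO replicate 3 to 0.045 without MigR1-DMSO replicate 1. Mrpl36 (-0.41, SE 0.22) and Mrpl50 (-0.39, SE 0.20) had the lowest values among the 6 mitochondrial members lower on every DNMAML-DMSO array than on any MigR1-DMSO array, as were 8.02% of all genes.

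GSI in MigR1 cells, against DMSO, called 0 members by limma, with 0.166% of all genes called and with 3 cytosolic and 1 mitochondrial members at an unadjusted p under 0.05, as were 4.88% of all genes. Rpl12 had the largest difference, -0.84 (SE 0.19, adjusted p 0.0893), and was called with replicate number as a block (adjusted p 0.046). Its GSI arrays lay below all its DMSO arrays, as did those of Rplp2 (-0.42, SE 0.14) and Mrpl50 (-0.39, SE 0.20) and of 4.0% of all genes. Class medians were -0.03 (cytosolic) and -0.08 (mitochondrial). The mitochondrial median turned sign with 1 array: it was 0.093 without MigR1-GSI replicate 3 and -0.18 without MigR1-DMSO replicate 3. DNMAML under GSI, against MigR1-GSI, called 0 members with 0.191% of all genes called, and 0 cytosolic and 1 mitochondrial member, Mrps27 (-0.36, SE 0.14), had an unadjusted p under 0.05, against 6.26% of all genes. The mitochondrial median was -0.03, and it ran from -0.20 without MigR1-GSI replicate 3 to 0.084 without DNMAML-GSI replicate 3.

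ICN1 under GSI, against MigR1-GSI, had 1 called member: Rpl12 rose by 0.70 (SE 0.19, adjusted p 0.0474), among 2.35% of all genes called and 1.28% called higher. This call was lost in 5 of the 6 fits that left out 1 array, the exception being ICN1-GSI replicate 2, in all 3 that left out a replicate number and in 4 of 7 other settings. Among mitochondrial members 0 were called and 6 had an unadjusted p under 0.05, against 10.7% of all genes. Their median was 0.19, with 67 of 77 above 0, against 47.3% of all genes. Mrpl50 (0.61, SE 0.20, adjusted p 0.16) and Mrpl19 (0.57, SE 0.18, adjusted p 0.124) had the largest differences among the 8 with every ICN1-GSI array above every MigR1-GSI array, as had 5.87% of all genes. The median rested on 1 array: without MigR1-GSI replicate 3 it was 0.015. Within replicate numbers 1, 2 and 3 it was 0.14, -0.12 and 0.52.

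R1984A under GSI, against MigR1-GSI, called 0 members with 1.36% of all genes called, and 3 cytosolic and 0 mitochondrial members had an unadjusted p under 0.05, against 7.51% of all genes. Rpl12 had a difference of 0.69 (SE 0.19, adjusted p 0.0784), close to its value with ICN1, and Rplp2 0.39 (SE 0.14). The mitochondrial median was -0.07, with 22 of 77 above 0, against 46.8% of all genes. It was -0.24 without MigR1-GSI replicate 3 and 0.021 without replicate number 2. ICN1 and R1984A share these MigR1-GSI arrays, so they were also compared directly.

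ICN1 against R1984A under GSI gave the most uniform direction: 77 of 77 mitochondrial members had a higher mean in ICN1-GSI cells, against 49.7% of all genes, with a median difference of 0.27 (0.31 for 39S and 0.23 for 28S members). By limma 0 of them were called and 14 had an unadjusted p under 0.05, while 1.1% of all genes were called and 8.88% had such a p. Mrps6 had the smallest adjusted p, 0.177, with 7.70, 7.56 and 7.48 in ICN1-GSI cells, against 7.46, 7.04 and 6.94 in R1984A-GSI cells, and Mrpl40 had a difference of 0.43 (SE 0.21). Both had every ICN1 array above every R1984A array, as had 13 of 77 mitochondrial members and 5.87% of all genes. Within replicate numbers 1, 2 and 3, 64, 64 and 75 of the 77 were above 0, with medians of 0.19, 0.13 and 0.47. Leaving out R1984A-GSI replicate 3 moved the median to 0.18, and leaving out R1984A-GSI replicate 1 moved it to 0.40. Members of the class moved together from array to array, so 77 of 77 does not stand for 77 separate observations. Array medians averaged 4.06 in R1984A-GSI cells and 4.01 in ICN1-GSI cells, and their part in the result was not tested. The cytosolic median was 0.04, with 46 of 59 above 0 and 0 called.

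In DMSO, ICN1 against R1984A gave a mitochondrial median of 0.10, with 63 of 77 above 0, against 50.2% of all genes. Without R1984A-DMSO replicate 3 this median was 0.0032, and without R1984A-DMSO replicate 1 it was 0.17. There 0 members were called, with 0.963% of all genes called, and 0 cytosolic and 3 mitochondrial members had an unadjusted p under 0.05, against 7.07% of all genes. Mrpl36 (0.38, SE 0.22) and Mrpl50 (0.35, SE 0.20) led among the 11 mitochondrial members with separate arrays, as had 6.5% of all genes. ICN1 in DMSO, against MigR1-DMSO, had a mitochondrial median of 0.11 with 69 of 77 above 0, against 49.4% of all genes, and 0 called, with 0.727% of all genes called, and 3 members at an unadjusted p under 0.05 (6.09% of all genes). Without MigR1-DMSO replicate 3 this median was 0.013. Mrps17 (0.37, SE 0.15) had the largest difference among members whose arrays did not overlap. R1984A in DMSO had a mitochondrial median of 0.02 (-0.093 without MigR1-DMSO replicate 3 and 0.093 without MigR1-DMSO replicate 1) and 0 called, with 0.978% of all genes called, while 2 cytosolic and 1 mitochondrial members had an unadjusted p under 0.05 (6.66% of all genes). Rplp2 had a difference of -0.34 (SE 0.14) there.

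GSI was also given to cells with DNMAML, ICN1 or R1984A. In DNMAML cells, GSI against DMSO gave medians of -0.02 (cytosolic) and -0.06 (mitochondrial) and 0 called, with 0.00502% of all genes called and 2 cytosolic members at an unadjusted p under 0.05 (2.54% of all genes), and Rpl12 had a difference of -0.46 (SE 0.19). The mitochondrial median was 0.061 without DNMAML-GSI replicate 3 and -0.15 without DNMAML-DMSO replicate 3. In ICN1 cells the medians were 0.003 and -0.007 (the second from -0.082 without ICN1-GSI replicate 1 to 0.086 without replicate number 2), with 0 members and 0.0% of all genes called and 0 members at an unadjusted p under 0.05 (2.37% of all genes). In R1984A cells the mitochondrial median was -0.17, with 70 of 77 below 0, against 51.5% of all genes, yet again 0 members and 0.0% of all genes were called, and 2 cytosolic and 2 mitochondrial members had an unadjusted p under 0.05 (3.18% of all genes). Mrpl9 had the lowest value there (-0.57, SE 0.27). That median was -0.06 without R1984A-GSI replicate 3.

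The change with GSI was then compared between constructs. Against the response of MigR1 cells, 0 members were called for DNMAML, ICN1 or R1984A, with 0.00502%, 0.015% and 0.0251% of all genes called. At an unadjusted p under 0.05 there were 1, 1 and 3 cytosolic and 0, 0 and 1 mitochondrial members, against 3.11%, 3.19% and 3.52% of all genes. The 4 for R1984A, named after their values were seen, were Rpl12 (0.80, SE 0.26), Rplp2 (0.73, SE 0.20), Rpl30 (0.64, SE 0.20) and Mrps27 (-0.53, SE 0.20).

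**Figure D5:**
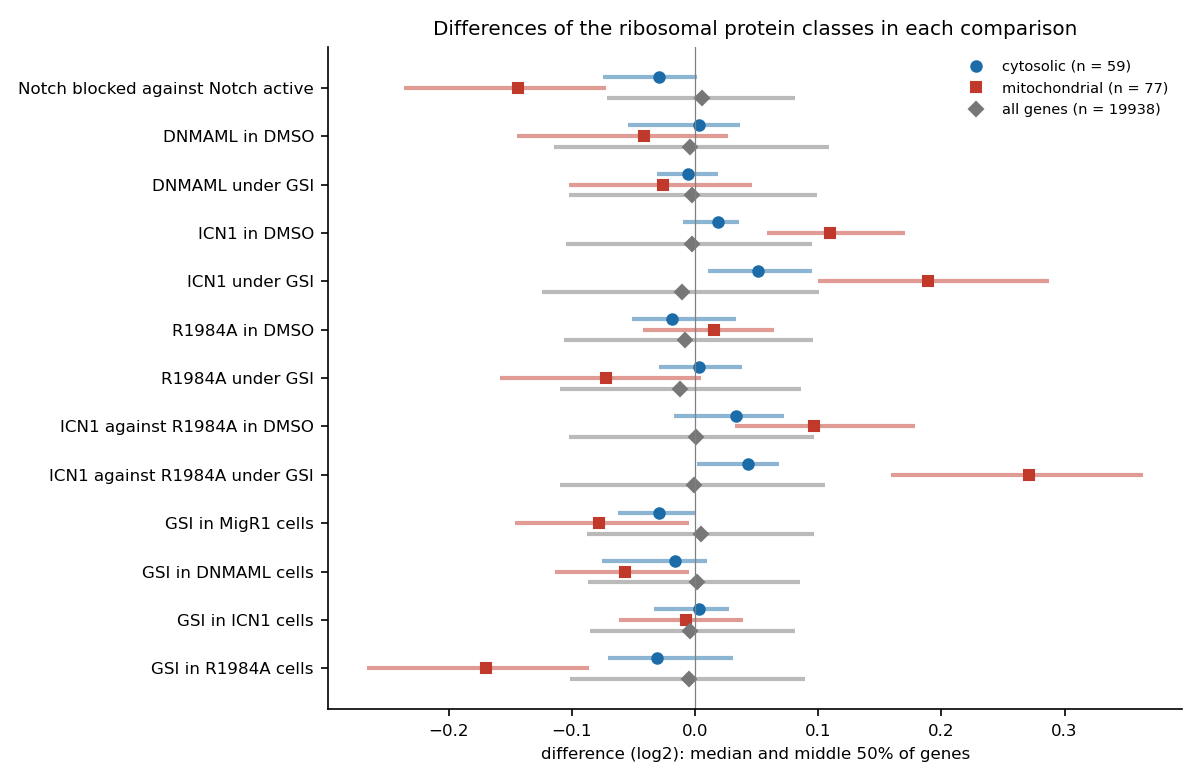
Median (symbol) and middle 50% (line) of the log2 differences of 59 cytosolic members, 77 mitochondrial members and all 19938 genes in 13 comparisons, the group named first minus its reference. The mitochondrial class lies farthest from all genes for ICN1 against R1984A under GSI (0.27), ICN1 under GSI (0.19) and GSI in R1984A cells (-0.17).

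The F test over the 8 groups called 4 members, Rpl12 (adjusted p 0.000596), Rpl30 (0.00356), Mrps30 (0.0486) and Mrpl50 (0.0495), among 7.24% of all genes. The calls of Mrpl50 and Mrps30 lay close to the threshold: they were lost in 18 and 19 of 24 fits that left out 1 array (adjusted p up to 0.126 and 0.121), while those of Rpl12 and Rpl30 were lost in 0. Without any 1 replicate number, only Rpl12 of the 4 was still called. With replicate number as a block the test called 4 cytosolic and 15 mitochondrial members, and with array weights 4 and 9. Next came Rplp2 (0.0629), Mrps27 (0.104) and Mrps6 (0.166). The remaining cytosolic members with the smallest adjusted p were Rpl34, Rps15a, Rpl3l, Rpl7l1, Rps27l, Rpl32l and Rpl14, with adjusted p from 0.621 to 0.968. In the mitochondrial class they were Mrpl20, Mrpl12, Mrps28, Mrpl19, Mrps18b and Mrpl36, from 0.206 to 0.312. Over group means, ICN1-DMSO or ICN1-GSI was the highest group for 33 and 28 of the 77 mitochondrial members, and R1984A-GSI or DNMAML-GSI the lowest for 33 and 21.

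Genes of the ribosome pathway outside the symbol rule give the setting of these values. Their lists were chosen with earlier results of these data known, so the counts are descriptions and not independent evidence. With Notch blocked, 56 of 66 ribosome biogenesis genes fell, against 5.52% of all genes, 0 rose, against 5.79% of all genes, and their median was -0.52. Rrp1b (-1.02, SE 0.07), a nucleolar protein, Polr1b (-0.92, SE 0.10), a subunit of RNA polymerase I, Nop16 (-0.84, SE 0.15) and Nolc1 (-0.83, SE 0.08) had the largest falls. Of 37 cytosolic translation factors 9 fell (5.52% of all genes), with Eif1a at -0.62 (SE 0.07) and Eif2b3 at -0.45 (SE 0.12), and the median was -0.11. Of 31 genes of mitochondrial translation and mitoribosome assembly 8 fell (5.52% of all genes), and their median of -0.14 was close to that of the mitochondrial ribosomal proteins. They include Noa1 (-0.45, SE 0.09), a GTPase of small-subunit assembly, Fastkd2 (-0.45, SE 0.13) and the elongation factor Gfm1 (-0.39, SE 0.06). Tfam (-0.48, SE 0.10) is also among the 8, since the list holds it although it packages mitochondrial DNA.

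Of 6 ribosomal proteins that the symbol rule misses, 2 fell, against 5.52% of all genes: Ptcd3 (-0.54, SE 0.07) and Chchd1 (-0.26, SE 0.08), both proteins of the small mitochondrial subunit. Dap3, another of them, had 0.29 (SE 0.11, adjusted p 0.0934), and the cytosolic Rpsa had -0.01 (SE 0.05). Among 13 genes of translation control 4 fell (5.52% of all genes), led by Deptor (-1.33, SE 0.09), an inhibitor of mTOR, and followed by Larp4 (-0.49, SE 0.05), Eif4ebp1 (-0.41, SE 0.09) and Larp1 (-0.38, SE 0.06), which binds pyrimidine-start transcripts. Of 13 p53 targets, Trp53inp1 (0.68, SE 0.06) and Sesn1 (0.39, SE 0.12) rose (5.79% of all genes) and Aen (-0.48, SE 0.11) fell (5.52%).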

How the data were processed

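Total RNA of 24 samples was hybridised to mouse gene arrays, 1 array per sample. The authors deposited 1 normalized value per probe set and array, which its range, 1.28 to 13.47, places on the log2 scale, and the deposited log2 values were used as given. The submitters' processing notes name oligo and limma. Background correction and normalization are not given in the sources used here, and the number of arrays limits the precision.

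Of 35556 probe sets, 21789 have 1 gene symbol in the platform annotation, 1621 have several and were left out, and 12146 have none. Each of 19938 genes took its probe set with the highest mean. Signal levels of different probe sets are not amounts of RNA, and they served only to choose a probe set per gene and to group genes by brightness. A linear model with 1 mean per group was fitted over 24 arrays with limma 3.58.1 in R 4.3.3, tested on simulated data beforehand, with Benjamini-Hochberg adjustment over 19938 genes. The 12 comparisons of groups share arrays, and so do the 3 comparisons of responses.

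The members and gene lists were chosen with earlier results of these data known. Named genes are called members and, where none were called, members whose arrays did not overlap with the largest differences, beside listed genes with the largest called differences. Same-numbered arrays deviated together in every pair (correlation over 0.1) in 8 comparisons, GSI in MigR1 and DNMAML in DMSO among them, so the replicate number was a block in alternative fits. Other alternatives were array weights, a second quantile normalization, centring arrays on their median, leaving out dim genes, averaging probe sets, fitting only the groups compared and leaving out arrays.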

Additional observations from a re-analysis of the deposited data

Results flagged for a closer look

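The response to GSI differed between constructs in a test of the difference itself for Nrarp, which is a Notch target and no ribosomal protein gene. GSI response minus that of MigR1 cells was 1.32 in DNMAML cells (adjusted p 0.000198 by limma), 1.23 in ICN1 cells (adjusted p 0.000664) and 1.18 in R1984A cells (adjusted p 0.00139). These 3 tests share the MigR1 arrays.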

How the results depend on the processing

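Counts of calls and class medians were recomputed under each alternative, and 93 of the recomputed values moved by over 1.5 times (counts) or by over the SD between arrays (medians, 0.034 cytosolic and 0.19 mitochondrial); the cause was not tested. The sign of a class median turned under at least 1 alternative for 13 of 16 cytosolic and 10 of 16 mitochondrial medians, while 0 genes called in a comparison turned sign. With replicate number as a block, the calls numbered 1 cytosolic (0 before) for GSI in MigR1, 2 (1) for DNMAML in DMSO, 1 (0) for R1984A under GSI and 1 (0) for ICN1 against R1984A under GSI. Mitochondrial calls numbered 3 for ICN1 under GSI, 2 for ICN1 against R1984A under GSI and 21 for Notch blocked, and the F test called 4 cytosolic and 15 mitochondrial members. The block moved no other count of calls that far. With array weights, cytosolic calls were 1 for GSI in MigR1, 2 for DNMAML in DMSO and 0 for ICN1 under GSI, where the cytosolic median was 0.0137. That median was -0.042 for R1984A under GSI, 4 mitochondrial members were called for ICN1 against R1984A under GSI, and the F test called 4 and 9. With arrays centred, DNMAML in DMSO and ICN1 under GSI called 0 cytosolic members, Notch blocked 2 mitochondrial ones and the F test 0. Cytosolic medians became 0.0636 for DNMAML in DMSO, -0.0352 for R1984A under GSI, 0.0883 for ICN1 against R1984A under GSI, 0.06 for ICN1 in DMSO, 0.0194 for R1984A in DMSO and -0.0988 for GSI in R1984A. For the GSI response minus that of MigR1 cells they became -0.0009 with ICN1 and -0.0717 with R1984A. A second quantile normalization called 0 cytosolic and 1 mitochondrial members for ICN1 under GSI and 1 mitochondrial member for ICN1 against R1984A under GSI. Fitting only the groups compared called 0 cytosolic members for ICN1 under GSI. Shares of all genes called under these alternatives, or with arrays left out, are not given here, so the counts cannot be set against them.

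Leaving out arrays, singly or by replicate number (the removals by number chosen after seeing the data), gave 0 to 1 cytosolic calls for GSI in MigR1, DNMAML in DMSO and ICN1 under GSI, and 0 to 1 mitochondrial calls for ICN1 against R1984A under GSI. Notch blocked called 2 to 15 mitochondrial members, and the F test 1 to 3 cytosolic and 0 to 2 mitochondrial ones. The cytosolic median ran from -0.0662 to 0.0093 for GSI in MigR1, from -0.0396 to 0.0313 for DNMAML under GSI, from -0.0049 to 0.0912 for ICN1 under GSI and from -0.0314 to 0.0323 for R1984A under GSI. For the GSI response minus that of MigR1 cells it ran from -0.0242 to 0.0446 with DNMAML and from -0.0109 to 0.0697 with ICN1, and the mitochondrial median with DNMAML from -0.1611 to 0.1467.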
